A study of Mus musculus with 9 samples.

Results

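A set of 9 genes for surface markers of hematopoietic stem and progenitor cells, Cd34, Cd93, Ly6a, Ly6e, Cd24a, Cd48, Cd27, Procr and Slamf1, were followed by RNA-Seq through the clonal expansion of a mouse acute myeloid leukemia (AML). They were picked by gene name and make up 9 of the 55401 genes in the tables. All cells came from one H9M line, made from lineage-negative bone marrow of C57BL/6-Ly5.1 mice with a gammaretroviral Meis1-2A-Hoxa9 vector that also carried puromycin resistance. Edited cells of that line were marked with lentiviral color-code vectors that carry an EGFRt tag. Color-coded clones were pooled and transplanted with helper bone marrow into lethally irradiated C57Bl6/J mice, and CD45.1+ EGFRt bright cKit+ CD11b dim or negative spleen cells of single color codes were sorted. The age and sex of the mice are not given in the sources used here.

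Groups of 3 libraries each were compared, 3 groups in all. Mouse 15, killed early, gave the pre-malignant libraries, from the minor clones 43BC-D and 38BC-D as well as 33BC-D. De novo expanded libraries came from these clones once they had grown out in endpoint mice 13, 14 and 17. Clone 34BC-D alone, taken from the latter 3 mice, made up the stably expanded group. The spread of the pre-malignant group is therefore one between clones within 1 mouse, and that of the stably expanded group one between mice within 1 clone, so that stage, mouse and, for the stably expanded group, clone cannot be told apart. Labels tie the table columns to groups but not to a clone or mouse, and the library numbers 1 to 3 are names only.

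These proteins are the ones used to sort the early blood system. In mouse bone marrow, Slamf1 (CD150), Procr (EPCR) and Ly6a (Sca-1) are associated with stem cells, Cd48, Cd27 and Cd34 separate stem cells from multipotent and myeloid progenitors, and Cd93, Ly6e and Cd24a are found on wider sets of progenitors and immature cells. Granulocyte-macrophage progenitors, the stage that leukemias driven by Hoxa9 and Meis1 resemble in mice, carry Cd34 and lack Ly6a and Slamf1 on their surface.

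Of the 9 genes, 6 were expressed and 3 were close to silent in all libraries. Levels between genes were compared per length, as RPKM, reads divided by the deposited exon length and by the reads on genes of the library. In the pre-malignant libraries, Ly6e had 157 ± 26.8 RPKM (SD, n = 3), Cd93 72.0 ± 6.61, Cd24a 64.5 ± 11.4, Cd48 43.8 ± 7.07, Cd34 15.3 ± 3.31 and Cd27 9.65 ± 1.25. Ranges of Cd93 and Cd24a overlapped there, while the other neighbours in this order did not overlap. Stably expanded libraries had another order: Cd24a stood first with 137 ± 3.12 RPKM, and Ly6e followed with 95.8 ± 20.0, with no overlap between the 2 genes. Below them came Cd93 (60.1 ± 17.7), whose highest library fell just short of the lowest one of Ly6e, Cd48 (41.6 ± 5.96), Cd34 (9.03 ± 2.03) and Cd27 (6.44 ± 1.99), with overlaps between Cd93 and Cd48 and between Cd34 and Cd27. De novo expanded libraries gave the widest spreads, with 106.5 ± 27.8 RPKM for Ly6e, 94.5 ± 25.9 for Cd24a, 76.7 ± 30.8 for Cd93, 51.4 ± 15.4 for Cd48, 14.6 ± 8.03 for Cd34 and 9.66 ± 3.42 for Cd27, and there only Cd48 and Cd34 were neighbours without overlap. The level of Ly6e exceeded that of 99.4% of genes with a read, and even Cd27 exceeded that of 87.9%.

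Slamf1, Procr and Ly6a were at the edge of detection in every group. Slamf1, a self-ligating receptor of the SLAM family, had 8, 4 and 2 reads before expansion, 7, 7 and 1 after de novo expansion and 4, 5 and 0 in the stably expanded clone. Procr, the endothelial protein C receptor, had 0, 1 and 3 reads, then 0, 2 and 0, and again 0, 2 and 0. Ly6a, the Sca-1 antigen, had 6, 3 and 5 reads, 13, 7 and 4 reads, and 5, 9 and 3 reads. All 3 genes overlapped between all groups. A count of 0 allows up to 3 reads in a library of this depth, and the 3 genes fell under the mean of 10 normalized counts needed for testing, so a difference between groups was not detectable at this depth. Per length, Ly6a had a mean of 0.276 RPKM in the pre-malignant group, Slamf1 0.055 and Procr 0.0445.

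Members of one family thus stood at opposite ends of the range, and promoter sequences are shown for the clearest case. Cd48 and Slamf1 are neighbours in the SLAM gene cluster of chromosome 1, Cd48 at positions 171682009 to 171705258 and Slamf1 at 171767127 to 171801184, and Cd34 lies on the same chromosome and was the only gene with a promoter on hand among those that differed between groups. The RefSeq promoter table (GRCm38.p6) held 5 of the 9 genes, Cd34, Cd48, Cd27, Procr and Slamf1. The 250 bases before the start are printed 5′ to 3′ in the direction of the gene, and capitals mark matches, on either strand, to any of 8 short motifs. These were the core GGAAG of ETS factors, the RUNX motif TGTGGT, the MEIS motif TGACAG, a C/EBP motif written TTGCAA, the GATA factor motif AGATAA, the interferon element core GAAACT, the E-box CACGTG and the TATA box in its form TATAAA.
Cd34 promoter, chr1:194938571-194938820, plus strand: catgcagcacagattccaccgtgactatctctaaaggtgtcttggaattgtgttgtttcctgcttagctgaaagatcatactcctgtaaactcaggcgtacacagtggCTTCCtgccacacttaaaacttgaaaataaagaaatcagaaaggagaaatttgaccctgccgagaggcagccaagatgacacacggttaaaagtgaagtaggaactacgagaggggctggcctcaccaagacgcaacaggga
Cd48 promoter, chr1:171681742-171681991, plus strand: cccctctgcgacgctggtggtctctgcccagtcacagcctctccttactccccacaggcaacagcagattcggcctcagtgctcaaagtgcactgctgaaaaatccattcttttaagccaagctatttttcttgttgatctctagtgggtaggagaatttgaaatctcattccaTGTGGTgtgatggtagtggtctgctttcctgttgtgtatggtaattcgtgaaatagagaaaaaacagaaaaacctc
Slamf1 promoter, chr1:171766882-171767131, plus strand: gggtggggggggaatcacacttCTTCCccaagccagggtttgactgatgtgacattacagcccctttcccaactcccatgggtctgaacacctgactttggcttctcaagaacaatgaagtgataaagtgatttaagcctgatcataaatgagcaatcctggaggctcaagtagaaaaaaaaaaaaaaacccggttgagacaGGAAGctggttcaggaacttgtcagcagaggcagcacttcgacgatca

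The Cd34 window held 1 ETS core and the Slamf1 window 2, and the Cd48 window held none but had 1 RUNX match. ETS cores are frequent, found in 64.1% of 32851 promoter windows of this length, and RUNX matches were in 14.0%. MEIS, C/EBP, GATA, interferon element, E-box and TATA letters had no match in these 3 windows, and 15.9%, 5.34%, 9.99%, 13.5%, 6.02% and 12.4% of all windows held them. No 2 matches overlapped. Such matches describe letters only. The RNA data do not measure binding there.

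**Figure D1:**
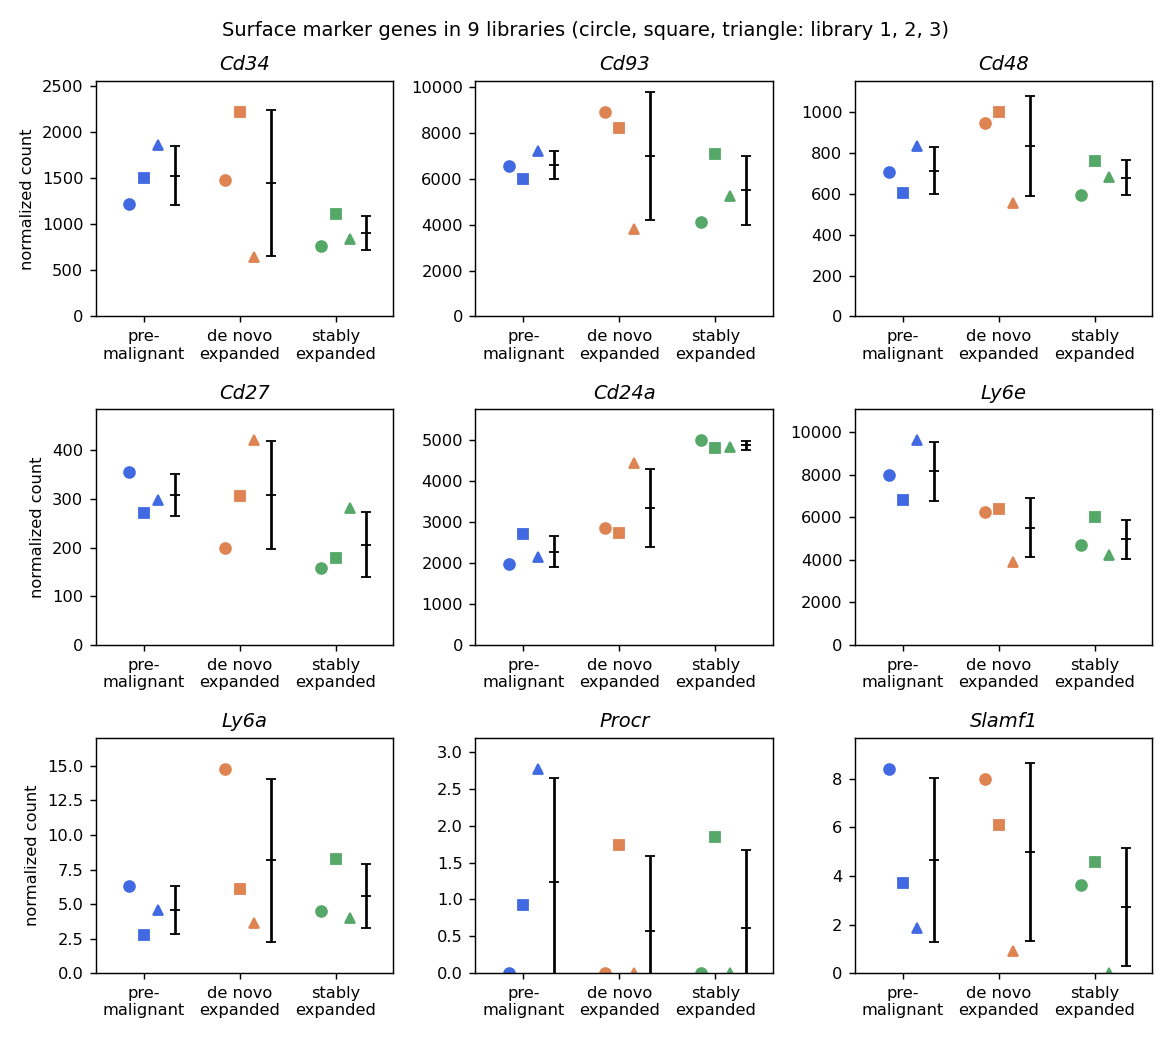
Normalized counts (y axis, linear from 0, own scale in each panel) of 9 surface marker genes in 3 pre-malignant, 3 de novo expanded and 3 stably expanded libraries. Circles, squares and triangles are libraries 1, 2 and 3 of a group, and black bars are mean ± SD, cut at 0. Cd24a in the 3 stably expanded libraries lies between 4802 and 4989, above all others, and Ly6a, Procr and Slamf1 reach 14.8 at most.

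A single library has to be named before the comparisons. De novo expanded library 3 stood outside the range of the other 2 libraries of its group for 6 of the 6 expressed markers. Over genes, its median root mean square distance to its own group was 0.839 on the log2 scale, against 0.528 to the stably expanded and 0.686 to the pre-malignant group. Summed over 13 neutrophil granule and maturation genes, it had 20769 CPM (reads scaled to the reads on genes of the library, not to length), while the other de novo expanded libraries had 3099.7 and 4372, the pre-malignant libraries 8228 to 9610.1 and the stably expanded libraries 11929.9 to 17364. Mpo weighed most in this sum, with normalized counts (mean ± SD) of 91089 ± 5450, 92177 ± 109300 and 112814 ± 11284 in the pre-malignant, de novo expanded and stably expanded groups. Its spread was thus widest in the de novo expanded group, where the SD exceeded the mean. The libraries held between 10379739 and 15551196 reads on genes. Results that rest on library 3 are given with and without it below.

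Sorting genes were present throughout. Kit, the receptor of the cKit gate, had mean normalized counts of 3693, 2921 and 2996.4 in the pre-malignant, de novo expanded and stably expanded groups and did not pass the test in any comparison. Itgam, which encodes CD11b, passed the adjusted p as higher in stably expanded than in pre-malignant cells (log2 fold change 0.61, adjusted p 0.0485), but kept this in only 1 of the 6 fits that left out a library, the one without stably expanded library 2 (adjusted p 0.0353 to 0.161 over the 6). Endothelial cells and platelets also carry some of these markers (Cd34, Cd93, Procr and Cd24a among them). Of 10 endothelial genes, Cdh5, Tie1, Cldn5, Emcn and Robo4 reached at most 6 reads in a library, Kdr 14, Plvap 20 and Egfl7 47, while Pecam1 and Erg, which myeloid progenitors also express, made up most of a summed level of 165.4 to 338.3 CPM. Megakaryocyte and platelet genes summed to 1.75 to 3.56 CPM over 8 genes, with Ppbp and Gp1bb at 0 reads everywhere. B cell genes summed to 20.9 to 30.9 CPM in the pre-malignant, 8.36 to 16.3 in the de novo and 12.7 to 21.5 in the stably expanded libraries (10 genes), T cell and NK cell genes to 8.51 to 15.7, 3.76 to 74.3 and 17.4 to 33.0 CPM (12 genes), and erythroid genes to 19.2 to 35.7, 2.29 to 15.4 and 2.31 to 25.6 CPM (10 genes). Cd79b was the most read of the B cell genes, with mean normalized counts of 98.7, 92.4 and 193.8 in the pre-malignant, de novo and stably expanded groups. The other 7 tested B cell genes had lower values in the stably expanded than in the pre-malignant group. Of the T cell and NK cell genes, Nkg7 reached 1082 reads in a library, Lck 24 and Cd3g 13, and the others fewer. In stably expanded against pre-malignant cells, 1 of 2 tested T cell and NK cell genes (Nkg7) passed as higher, which with a library left out held only without stably expanded library 2, 3 of 8 macrophage and monocyte genes as lower, and the 1 tested platelet gene did not pass. In sorted bulk cells, fewer cells of a type and less RNA per cell cannot be told apart.

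Stably expanded against pre-malignant cells gave the clearest differences, and these ran both ways. Cd24a was higher in the stably expanded clone, and Cd34 and Ly6e were lower. Among the 6 tested markers, 3 passed an adjusted p under 0.05 with limma, where 7.95% of 13968 tested genes did, and 1 of these, Cd24a, also reached the 2-fold limit of a call, where 2.75% did. As higher, 4.34% of all genes passed the adjusted p, and as lower 3.61%. Unadjusted p values under 0.05 were found for 4 of the 6 markers and 25.4% of all genes. The 3 genes past the adjusted p had no overlap between the groups, as did 30.7% of all tested genes.

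Cd24a encodes a short, heavily glycosylated, GPI-anchored protein of immature B cells, granulocytes and erythroid cells, and binds Siglecs and P-selectin. Its normalized counts were 1976, 2708 and 2145 before expansion, 2860.4, 2728 and 4430.2 after de novo expansion and 4989, 4802 and 4812 in the stably expanded clone. Stably expanded libraries were all higher than any other library and differed little among themselves. The log2 fold change against the pre-malignant group was 1.11 (SE 0.11, 95% interval 0.86 to 1.36), a 2.16-fold higher level, with an adjusted p of 0.00247 by limma. Cd24a passed the call in each of the 6 fits that left out a library, with log2 fold changes of 1.02 to 1.24. A single fit of all 9 libraries kept the size (1.11) and gave an adjusted p of 0.0729, the highest of 8 other settings, of which the lowest was 1.29e-14.

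Markers of the normal cells that bear CD24 did not all move the same way. Of 12 tested neutrophil genes, 7 passed an adjusted p under 0.05 as higher in the stably expanded group and none as lower, and Ltf, Camp, Ngp, Lcn2 and Cebpe, which encode granule proteins and a granulocytic transcription factor, were called (log2 fold changes of 4.58, 3.98, 3.14, 2.54 and 1.66). Ltf, Camp and Ngp varied widely among the stably expanded libraries, with normalized counts of 636 ± 664, 5051 ± 5354 and 18519 ± 15959 (mean ± SD). Of 8 tested B cell genes, 3 passed as lower and none as higher. Pax5 and Ebf1 were called in 4 of the 6 fits that left out a library, and Ms4a1 in 1. Cd79b alone had a higher value (0.99, adjusted p 0.0796 by limma). Over all tested genes, 4.34% passed as higher and 3.61% as lower. Of 6 tested erythroid genes, none passed in either direction, and 5 had lower values. Leaving out pre-malignant library 3 took Ltf just past the adjusted p (0.0526), and the other 4 called neutrophil genes were called in each omission. The other 5 tested neutrophil genes did not pass. S100a9 (2.44, adjusted p 0.0647 by limma), S100a8 (1.81, adjusted p 0.0788), Prtn3 (0.40, adjusted p 0.0706) and Mpo (0.31, adjusted p 0.152) had higher values. Mmp8 had a lower one (-1.06, adjusted p 0.312). Of the 12 genes, 11 had higher values, and 11 had an unadjusted p under 0.05, which 25.4% of all tested genes had. The part of these genes in the Cd24a difference was not tested.

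Cd34, a sialomucin that marks progenitors, had normalized counts of 1216, 1505 and 1859.8 before expansion, 1482, 2219 and 644 after de novo expansion and 761, 1107 and 837 in the stably expanded clone. All stably expanded libraries lay below all pre-malignant ones. The log2 fold change was -0.76 (SE 0.17, 95% interval -1.14 to -0.38), with an adjusted p of 0.0261 by limma, and at 1.69-fold it was short of the 2-fold limit. Leaving out pre-malignant library 2 or 3 or stably expanded library 1 or 3 moved the adjusted p above 0.05, with a range over all 6 omissions from 0.0122 to 0.0917, and the fit of all 9 libraries gave 0.308. Pecam1, which like Cd34 is shared by progenitors and endothelium, was the 1 of 3 tested endothelial genes that passed, as lower (log2 fold change -1.01, adjusted p 0.00557). Leaving out pre-malignant library 2 or 3 or stably expanded library 1 took Pecam1 below 2-fold (-1.14 to -0.81 over the 6 omissions). The other 2 tested endothelial genes, Egfl7 (log2 fold change 0.68, adjusted p 0.495 by limma) and Erg (0.11, adjusted p 0.623), had higher values and did not pass. Kdr had mean normalized counts of 9.23, 2.95 and 2.87 in the 3 groups and Plvap 6.39, 11.5 and 5.98, too few for testing. The part of endothelial RNA in the Cd34 difference was not tested.

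Ly6e, a GPI-anchored Ly6 protein inducible by interferon, was, with Cd93, the most read gene of the set. Its normalized counts were 7992, 6830 and 9614 before expansion, 6230.3, 6385 and 3896 after de novo expansion and 4696, 5991 and 4201 in the stably expanded clone. Both leukemic groups lay wholly below the pre-malignant group. Against the pre-malignant group the stably expanded log2 fold change was -0.72 (SE 0.15, 95% interval -1.04 to -0.39), 1.64-fold lower, with an adjusted p of 0.0191 by limma. Leaving out pre-malignant library 1 or 3 or stably expanded library 1 moved the adjusted p just above 0.05 (range over 6 omissions 0.0074 to 0.06), and the fit of all 9 libraries gave 0.133.

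Cd27, Cd93 and Cd48 did not pass the test. Cd27, a TNF receptor family member whose ligand is Cd70, had normalized counts of 355, 271 and 298 before expansion, 198, 305 and 420.3 after de novo expansion and 158, 178 and 282 in the stably expanded clone. The groups overlapped at 1 library, and the log2 fold change of stably expanded over pre-malignant cells was -0.61 (SE 0.22, 95% interval -1.11 to -0.12, adjusted p 0.116 by limma). Without stably expanded library 3 the adjusted p was 0.0279, in a range of 0.0279 to 0.308 over the 6 omissions. Vamp1 overlaps Cd27 on the opposite strand with 4577 reads in all, and the strand setting of the counting is not given in the sources used here, so reads of the 2 genes may not be fully separated.

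Cd93, a C-type lectin-like receptor of early progenitors, monocytes and endothelium, had 6543, 5995 and 7220.2 normalized counts before expansion, 8919, 8231 and 3816 after de novo expansion and 4130, 7098 and 5245 in the stably expanded clone. Its groups overlapped, with a log2 fold change of -0.29 for stably expanded over pre-malignant cells (95% interval -0.66 to 0.07, adjusted p 0.298 by limma). Without stably expanded library 2, the library with the highest Cd93 of its group, the adjusted p was 0.0429, the lowest of 6 omissions that reached up to 0.714. Cd48, the GPI-anchored SLAM family ligand of Cd244a and Cd2, had 705, 601 and 833 normalized counts before expansion, 947, 1000.7 and 553 after de novo expansion and 592, 761 and 681 in the stably expanded clone. Its stably expanded and pre-malignant values overlapped, and the 95% interval of the log2 difference, -0.39 to 0.26, leaves room for changes of up to about that size either way.

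**Figure D2:**
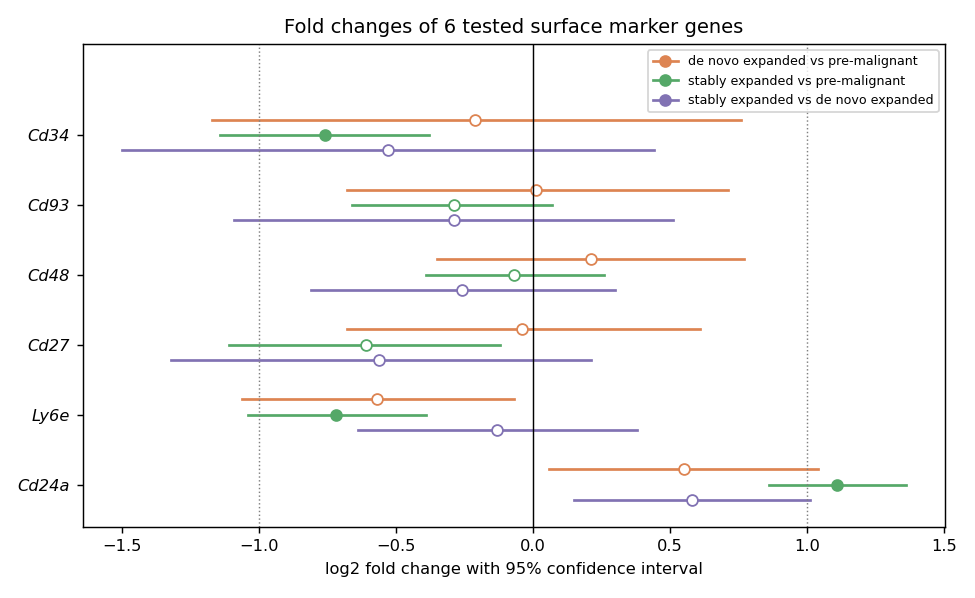
Log2 fold changes (x axis) of the 6 tested surface marker genes in 3 comparisons, with 95% confidence intervals from limma. Filled points passed an adjusted p under 0.05, and dotted lines mark 2-fold changes. Of the filled points, Cd24a in stably expanded over pre-malignant cells (1.11) is past a dotted line, and Cd34 (-0.76) and Ly6e (-0.72) are not.

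De novo expanded against pre-malignant cells compared the same clones before and after they grew out, and none of the 6 markers was called. In that comparison 0.0% of 14195 genes were called by limma, 1597 had an unadjusted p under 0.05, edgeR also called 0 genes, and DESeq2 called 42, none of them a marker. Of the 6 markers, 2, Ly6e and Cd24a, had an unadjusted p under 0.05 and groups without overlap, which 11.3% and 19.1% of tested genes had. The log2 fold change of Ly6e was -0.57 (SE 0.21, 95% interval -1.06 to -0.07, adjusted p 0.417), and that of Cd24a was 0.55 (SE 0.21, 95% interval 0.06 to 1.04, adjusted p 0.418). Both comparisons with pre-malignant cells use the same 3 pre-malignant libraries, so that like directions of these genes in them are not independent.

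The other 4 markers had intervals that included 0, with log2 fold changes of -0.21 for Cd34 (95% interval -1.17 to 0.76), 0.01 for Cd93 (-0.68 to 0.71), 0.21 for Cd48 (-0.35 to 0.77) and -0.04 for Cd27 (-0.68 to 0.61). Library 3 of the de novo expanded group lay apart for all of them. It had 2.87-fold less Cd34, 2.25-fold less Cd93, 1.76-fold less Cd48 and 1.62-fold less Ly6e than the mean of the other 2 libraries, and 1.59-fold more Cd24a and 1.67-fold more Cd27. For none of the 6 genes did it fall within the stably expanded range either, since it went beyond that range for Cd34, Cd93, Cd48 and Ly6e at the low end and for Cd27 at the high end, and stayed below it for Cd24a.

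Without library 3, the de novo expanded clones had values above pre-malignant ones for Cd93 (log2 fold change 0.40, adjusted p 0.0561), Cd48 (0.48, adjusted p 0.0939), Cd24a (0.32, adjusted p 0.181) and Cd34 (0.29, adjusted p 0.426), and below them for Ly6e (-0.34, adjusted p 0.164) and Cd27 (-0.30, adjusted p 0.452), all by limma. None of the 6 passed, although 214 genes (1.5%) were then called and 4.35% passed the adjusted p. Cd34 turned from a lower to a higher value with this omission. Over the 6 omissions, the adjusted p ranged from 0.426 to 0.979 for Cd34, 0.0561 to 0.999 for Cd93 and 0.0939 to 0.96 for Cd48.

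**Figure D3:**
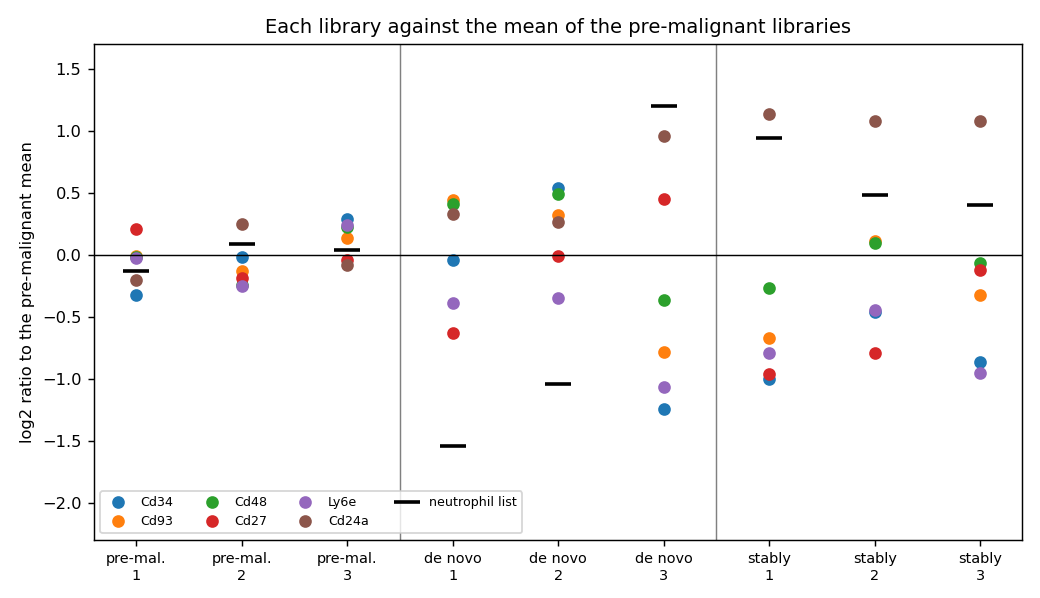
Log2 ratio (y axis) of each of 9 libraries (x axis) to the mean of the 3 pre-malignant libraries, for 6 surface marker genes (colored points, normalized counts) and for the summed CPM of 13 neutrophil genes (black dashes). Mpo has the highest mean count of these 13 genes in each group. De novo expanded library 3 has the lowest Cd34, Cd93, Cd48 and Ly6e of its group and the highest neutrophil sum (20769 CPM) of all libraries.

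Stably against de novo expanded cells, both leukemic and from the same mice, gave no call among the markers. Of 13758 genes, 1 was called (0.00727%) by limma, and 664 (4.83%) had an unadjusted p under 0.05, as did 1 of the 6 markers. edgeR called 1 gene and DESeq2 29, none of them a marker. Cd24a was the only marker whose groups did not overlap, which 9.61% of genes shared, with a log2 fold change of 0.58 (SE 0.18, 95% interval 0.15 to 1.01, unadjusted p 0.015, adjusted p 0.891). The other differences were -0.56 for Cd27 (95% interval -1.32 to 0.21), -0.53 for Cd34 (-1.50 to 0.44), -0.29 for Cd93 (-1.09 to 0.51), -0.26 for Cd48 (-0.81 to 0.30) and -0.13 for Ly6e (-0.64 to 0.38).

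Library 3 again set the outcome. Without it, 508 genes (3.69%) were called, Cd34 was called as lower in the stably expanded clone (log2 fold change -1.02, adjusted p 0.0196 by limma) and Cd24a passed the adjusted p, as 6.69% of genes did, without reaching 2-fold (0.80, adjusted p 0.00228). Values of the other markers were -0.68 for Cd93 (adjusted p 0.0715), -0.53 for Cd48 (adjusted p 0.0593), -0.36 for Ly6e (adjusted p 0.199) and -0.30 for Cd27 (adjusted p 0.642). With each of the other libraries left out in turn, no marker passed, and the adjusted p reached 1.0. No source gives a reason to drop library 3, and the fits with it are the main ones.

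Relatives and partners of the markers were then counted from lists by role. Of 32 further surface proteins that gate stem and progenitor cells, 23 were tested in stably expanded against pre-malignant cells, and 7 passed an adjusted p under 0.05 as higher and 0 as lower, with a median log2 fold change of 0.24 against 0.004 over all genes. Over all genes, 4.34% passed as higher and 3.61% as lower. Of the 7, Itgb1 passed in 0, Fcgr3 in 1 and Cd82 in 4 of 6 fits that left out a library, and the others in all 6. Called were Cd33, a sialic acid-binding lectin of myeloid cells (log2 fold change 1.58, SE 0.20, adjusted p 0.00346), and Prom1 (CD133), a pentaspan membrane protein (2.81, SE 0.38, adjusted p 0.00412). Prom1 was at a low level, with mean normalized counts of 10.7 before and 80.5 in the stably expanded clone. In de novo expanded against pre-malignant cells 0 of 24 passed, 6 of them with an unadjusted p under 0.05, with a median of 0.23 against 0.008. In stably against de novo expanded cells 0 of 23 passed, 3 with an unadjusted p under 0.05, with a median of 0.04 against -0.002. Tek, a receptor of stem cells, had at most 4 reads in a library.

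The SLAM family showed a split like that of Cd48 and Slamf1. Ly9, Cd84 and Cd244a, the last a receptor for Cd48, had 12.1, 10.0 and 5.16 RPKM in the pre-malignant group, while Slamf7, Slamf8 and Slamf9 had at most 16 reads in a library. Of 5 tested members and adaptors, none passed in any of the 3 comparisons, and medians were -0.07, -0.01 and -0.27. The smallest p in stably expanded against pre-malignant cells was that of Ly9 (log2 fold change -0.36, unadjusted p 0.0316, adjusted p 0.152 by limma). In de novo expanded against pre-malignant cells it was that of Cd244a (0.65, unadjusted p 0.0463, adjusted p 0.437).

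In the Ly6 and uPAR domain family, Ly6c2, a marker of monocytes and myeloid progenitors, was as abundant as Ly6e, with 121.5, 116 and 158 RPKM in the 3 groups. Cd177, a neutrophil antigen, had 11.1, 13.5 and 36.8 RPKM and a log2 fold change of 1.43 (SE 0.45, adjusted p 0.0773) in stably expanded over pre-malignant cells. Of the 19 family genes in the tables, 4 were tested and none passed in any comparison, and 2 had an unadjusted p under 0.05 in stably expanded against pre-malignant cells. Ly6a thus belonged with the majority of its family here, near 0. Ly6 genes resemble each other in sequence and Cd24a has processed copies in the genome, and how reads with several matches were handled is not given in the sources used here.

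**Figure D4:**
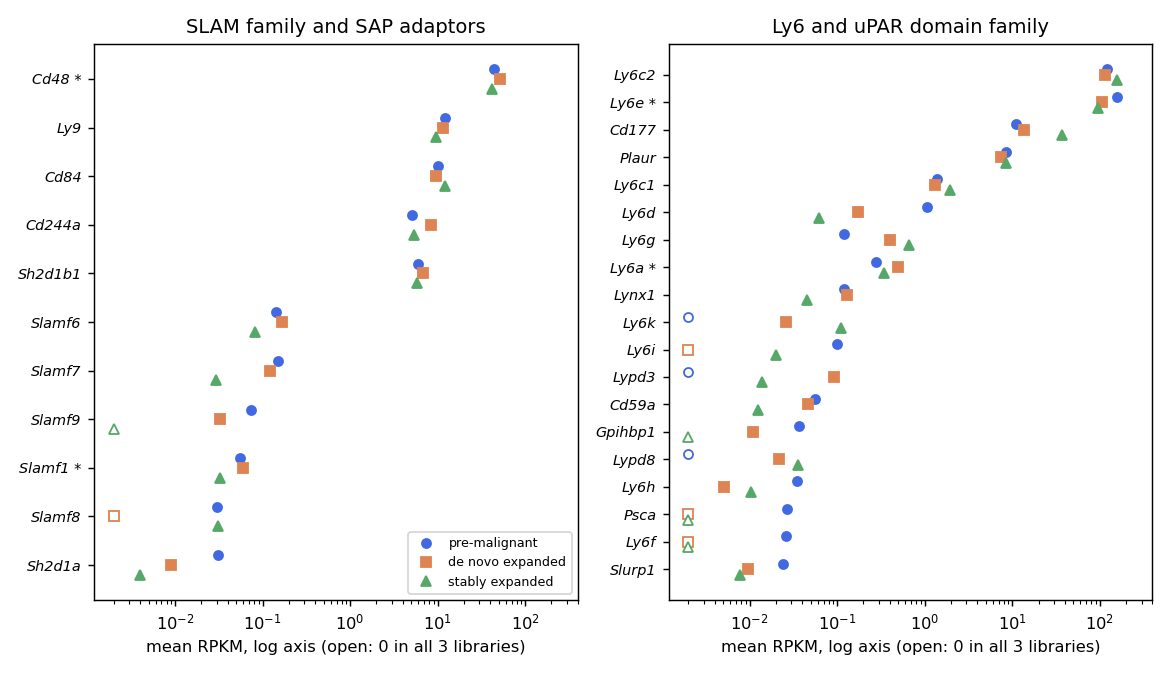
Mean RPKM (x axis, log scale) of SLAM family genes and adaptors (left) and Ly6 and uPAR domain genes (right) in pre-malignant (circles), de novo expanded (squares) and stably expanded (triangles) groups of 3 libraries each. Asterisks mark Cd48, Slamf1, Ly6e and Ly6a, and open symbols stand for 0 in all 3 libraries. Cd48 (43.8 RPKM before expansion) and Slamf1 (0.055) lie far apart within one family, as do Ly6e (157) and Ly6a (0.276).

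Closest relatives of Cd34 and Cd93 were mostly silent. Podxl, Podxl2, Clec14a and Cd248 reached at most 13 reads in a library, and only Thbd (thrombomodulin), of the Cd93 family, was tested. It was called as lower in stably expanded than in pre-malignant cells, with mean normalized counts of 811, 631 and 398 in the 3 groups (log2 fold change -1.07, SE 0.19, adjusted p 0.0101). The call was lost without stably expanded library 1, where its value of -0.87 was short of 2-fold, and without library 2 the value was -1.30.

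Ligands and signal transducers of the markers were counted in the same way. Thbd also belongs here, with the call and its limit given above. The median of 13 tested genes was 0.08 against 0.004 over all genes. Cd70, the ligand of Cd27, had at most 2 reads in a library, while Traf2, which transduces Cd27 signals, had 495, 523 and 545 normalized counts. In the other 2 comparisons none passed, of 15 and 14 tested, with medians of 0.26 and -0.04 and 3 and 2 genes at an unadjusted p under 0.05.

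Ly6a, Ly6e, Cd24a and Cd48 are held in the membrane by a GPI anchor, and the genes that build it were tested as a list. Of 22 tested in stably expanded against pre-malignant cells, 1 was called, Pgap1, an inositol deacylase that trims the anchor, at a low level (mean normalized counts of 22.7 and 4.70, log2 fold change -2.21, SE 0.60, adjusted p 0.0484). Left-out libraries kept this call only without stably expanded library 2 (adjusted p 0.0377 to 0.15 over 6 omissions). The median of the list was 0.12. None passed in de novo expanded against pre-malignant (22 tested, median 0.10) or in stably against de novo expanded cells (21 tested, median 0.05), where no gene of the list had an unadjusted p under 0.05 either.

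Interferon response genes were counted beside Ly6e. Of 24 tested, 5 passed an adjusted p under 0.05 as lower in stably expanded than in pre-malignant cells and 0 as higher, and the median was -0.67 against 0.004 over all genes. Over all genes, 3.61% passed as lower and 4.34% as higher. Mx1 (log2 fold change -2.2, adjusted p 0.00741), Gbp2 (-1.48, adjusted p 0.0206) and Rsad2 (-1.33, adjusted p 0.0318), all antiviral effectors, were called. Mx1 was called in all 6 fits with a library left out, Gbp2 in the 3 that left out a stably expanded library and Rsad2 only without stably expanded library 2. Of the 24 genes, 4 had higher values in the stably expanded group, among them Ifit2 (0.78, adjusted p 0.066) and Ddx58 (0.90, adjusted p 0.0967), both named after their values were seen. In de novo expanded against pre-malignant cells 22 of the 24 had lower values, with a median of -0.67, 9 had an unadjusted p under 0.05 and none passed after adjustment. Between stably and de novo expanded cells the median was 0.0, with 0 of 23 passing and 2 at an unadjusted p under 0.05. The part of an interferon response in the Ly6e difference was not tested.

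Intracellular stem cell genes were as scarce as the stem cell surface markers. Of 15 stem cell genes, 3 were tested, Hlf, Mllt3 and Ctnnal1, and Mecom, Fgd5 and Hoxb5 had at most 8 reads in a library. Mllt3, a transcription elongation factor subunit, was called as lower in the stably expanded clone (log2 fold change -1.16, adjusted p 0.0453), a call that with a library left out held only without stably expanded library 3 (adjusted p 0.0477 to 0.142 over 6 omissions). Hlf, a transcription factor of stem cells, had mean normalized counts of 19.3, 92.3 and 34.1 and was not called in any comparison. Summed over the list, levels were 16.2 to 23.3 CPM in the pre-malignant, 12.5 to 33.0 in the de novo and 12.7 to 18.3 CPM in the stably expanded libraries.

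Over the 9 libraries, the genes whose pattern was most like that of each marker were taken from 10335 genes by Pearson r of log2 normalized counts. For Cd34 these were Bex6 (0.983), BC035044 (0.972) and Stat5b (0.965), and for Cd93 Ccnd1 (0.984), Ccr2 (0.982) and Mfge8 (0.982). Those of Cd48 were Adam9 (0.977), Serinc3 (0.961) and Hivep3 (0.958). Ly6e was most like I830077J02Rik (0.981), Stk17b (0.969) and Crebbp (0.965), Cd24a most like Yaf2 (0.966), Mapre1 (0.966) and Fopnl (0.957), and Cd27 most like Ap4m1 (0.927), Arsk (0.923) and Gm43162 (0.918). The 9 points fall into 3 groups that share mice and clones, and library 3 of the de novo expanded group is extreme among them, so these values describe likeness and nothing more.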

How the data were processed

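Stranded total RNA libraries were made from the small RNA amounts of the sorted cells with a SMARTer Pico kit (v3). Reads were processed by the authors with nf-core/rnaseq (Trim Galore 0.6.4, STAR 2.6.1d, featureCounts 1.6.4) on GRCm38.p6 with a GENCODE annotation, and whether the UMIs of the kit were used is not given in the sources used here. The deposited values are a signal, normalized counts in 3 pairwise tables of 6 libraries, for which the authors scaled the reads of each gene by DESeq2 size factors. Their log2 fold changes, standard errors, Wald statistics and p-values stand in the same tables, and none was used.

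Dividing by the smallest step returned whole reads, within 0.05 reads, for at least 99.995% of values. Counts shown per library were these reads, rescaled over all 9 libraries. Tests used limma 3.58.1 (eBayes with trend) on log2(normalized count + 1), two-sided, in genes with a mean of at least 10 over the 6 libraries of a table, with Benjamini-Hochberg adjustment over all genes tested, so fold changes are on that log2 scale and understate those of low genes. Calls needed an adjusted p under 0.05 and a 2-fold change. edgeR 4.0.16 and DESeq2 1.42.0 on the reads, other pseudocounts, filters and scalings, and leaving out each library were alternatives. The tests were checked on simulated data. Intervals and floors cover counting or library spread only, not losses before sequencing. Patterns were compared among genes with a mean of at least 50.

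Members and gene lists were chosen with earlier results of these data known. Some genes of the lists, and an edit that all cells share, are not reported here. All 9 members were named, and of each list the called genes, otherwise up to 4 with the smallest p, and up to 4 of the highest level. Neutrophil, lymphoid, erythroid, endothelial and platelet genes and other genes near 0 were named as markers of the sort. Analyses ran in R 4.3.3 and Python 3.11.15.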

Additional observations from a re-analysis of the deposited data

How the results depend on the processing

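No paired analysis was possible because the table columns carry library identifiers that the labels tie to a group but not to a clone, mouse or replicate number, so a replicate block or pairing could not be fitted. Of 270 values of the 6 tested markers under other settings, 254 kept direction and side of the call, 12 turned direction, 3 passed the call newly and 1 lost it. The setting with no fold limit repeats the main fit, so no direction could turn there. In it, Cd34 and Ly6e newly passed in stably expanded over pre-malignant cells. Both lie under 2-fold, so elsewhere in that comparison they count as kept even where the adjusted p rose above 0.05. By limma it stayed under 0.05 in 2 (Cd34) and 3 (Ly6e) of 6 omissions. The values that turned, each near 0 or resting on 1 library, were those of de novo expanded over pre-malignant cells for Cd34 (0.29 without de novo expanded library 3), Cd93 (-0.02 with quantile normalization, -0.01 in the fit of all 9 libraries, -0.21, -0.15 and -0.05 without de novo expanded library 1 or 2 or pre-malignant library 2) and Cd27 (0.0025 with edgeR, 0.02 with DESeq2, 0.25 and 0.07 without library 1 of either group), and of stably expanded over pre-malignant cells for Cd48 (0.05 and 0.03 without pre-malignant library 3 or stably expanded library 1). With a library left out, these values ranged from -0.60 to 0.29 for Cd34, -0.21 to 0.40 for Cd93, -0.30 to 0.25 for Cd27 and -0.18 to 0.05 for Cd48. The cause was not tested.

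Counts of genes called, 0 in de novo expanded against pre-malignant, 384 in stably expanded against pre-malignant and 1 in stably against de novo expanded cells, were 0, 387 and 1 with edgeR. In de novo expanded against pre-malignant cells 5 were called without the filter, 42 with DESeq2, 5 in the fit of all 9 libraries and 0 to 214 with a library left out. In stably expanded against pre-malignant cells 6 were called in the fit of all 9 libraries, in which the widely spread de novo expanded libraries share the variance estimate and in which 0 of the 21 called genes of the lists were called, 1110 with no fold limit and 206 to 452 with a library left out. In stably against de novo expanded cells 2 were called without the filter, 29 with DESeq2, 2 in the fit of all 9 libraries and 0 to 508 with a library left out. With 3 libraries a group an exact permutation test cannot go below 0.10, and depth limits Ly6a, Procr and Slamf1.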
